A study of Mus musculus with 6 samples.

Results

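The MYC and ribosome biogenesis set comprised 40 of the 24354 genes in an expression table of mouse epidermal cells. Its members were chosen by gene symbol: MYC family genes with their partner MAX and MAX-binding repressors, and genes for nucleolar and RNA polymerase I proteins. All 40 had a row in the table and all 40 passed the filter on low values. RNA was sequenced from basal epidermal cells sorted by flow cytometry for high α6 integrin, an adhesion receptor of cells attached to the basement membrane, from E18.5 embryos. The 3 wild-type (WT) libraries and the 3 mutant libraries, of genotype Pik3ca H1047R/H1047R, were all of the C57BL6 strain. Pik3ca encodes the catalytic subunit p110α of phosphoinositide 3-kinase, and H1047R is an activating change frequent in human tumours. No Cre driver, promoter or further allele is named in the labels, and they do not tell whether the libraries of a group represent different embryos, so the p-values below reflect no more than the spread of these 6 samples, part of which may be technical.

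MYC is a transcription factor that binds E-box sequences as a dimer with MAX, and MXD-type repressors compete with it for MAX at the same sequences. Ribosome biogenesis starts in the nucleolus, where RNA polymerase I transcribes ribosomal RNA, small nucleolar ribonucleoproteins (snoRNPs) modify it, and processing factors cut and fold it into the small and large subunits. Many of these nucleolar genes are known MYC targets, and growth signalling through phosphoinositide 3-kinase is known to promote ribosome production.

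Expression was given as FPKM, a fragment count divided by transcript length and by library size. Differences are on the log2(FPKM + 1) scale, mutant minus WT, and a gene was called when limma's Benjamini-Hochberg adjusted p, over the 11385 genes whose mean reached 1 FPKM, was under 0.05. Of those genes 46.0% were called, 23.2% as higher and 22.8% as lower in the mutant, so single calls are common in this comparison. The libraries summed to between 656761 and 767148 FPKM in WT and between 538627 and 651769 in the mutant, and the number of reads behind them is unknown. Mutant replicate 3 stood apart in small RNAs: rows spanning under 200 bases held 8.26% of its summed FPKM, against 0.659% to 2.6% in the other libraries. Pik3ca itself was at 8.70, 8.92 and 9.50 FPKM in WT and 7.15, 6.81 and 5.98 FPKM in the mutant, a log2 difference of -0.39 (limma adjusted p = 0.00433) that was -0.10 (adjusted p = 0.589) with libraries scaled to the same total. A gene-level value cannot show the point mutation.

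The sorted cells carried the markers of their label, with a further difference in differentiation genes between groups. The 6 basal keratinocyte markers (Krt5, Krt14, Trp63, Itga6, Itgb4, Col17a1) summed to between 23047 and 23638 FPKM in WT and between 20155 and 23211 FPKM in the mutant, and 3 of the 6 were lower. The 5 suprabasal markers in the table (Krt1, Krt10, Dsg1a, Dsc1, Lor) summed to 2824 to 3610 FPKM in WT and 10564 to 13237 FPKM in the mutant, with 4 higher and 1 lower. Summed fibroblast markers were at 369 to 501 FPKM in WT and 303 to 337 FPKM in the mutant, and erythroid markers at 132 to 218 and 41.7 to 111. Melanocyte, immune, muscle and endothelial markers each summed to 20.97 FPKM or less in any library, and Cd207, which marks Langerhans cells, was listed at 0 in all 6. The part of these markers in the results below was not tested, and in bulk samples fewer cells of a type and less RNA per cell cannot be told apart.

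Of the 40 members, 14 were higher and 4 lower in the mutant, and 22 did not pass the test. Without mutant replicate 3, 13 were higher and 6 lower. That is 45% called, beside 46.0% of all genes tested; by direction, 35.0% of members were higher beside 23.2% of all genes, and 10% were lower beside 22.8%. The higher members were Polr1a, Polr1b, Ubtf, Rrn3, Nop56, Dkc1, Nolc1, Wdr75, Heatr1, Rrp12, Bop1, Ftsj3, Rrs1 and Ddx21, all factors that make or process ribosomal RNA. The lower members were the MAX-binding repressors Mxd1 and Mxi1, the polymerase subunit Polr1c and the nucleolar chaperone Npm1. The changes were small: 15 of the 18 called members moved by less than 1.5-fold, the largest rise was 1.42-fold (Rrp12) and the largest fall 1.66-fold (Mxi1). All mutant libraries were above all WT libraries for 17 members and below them for 6, so the groups stayed apart for 23 of 40 members, beside 56.0% of all genes tested (29.1% above and 26.9% below).

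**Figure D1:**
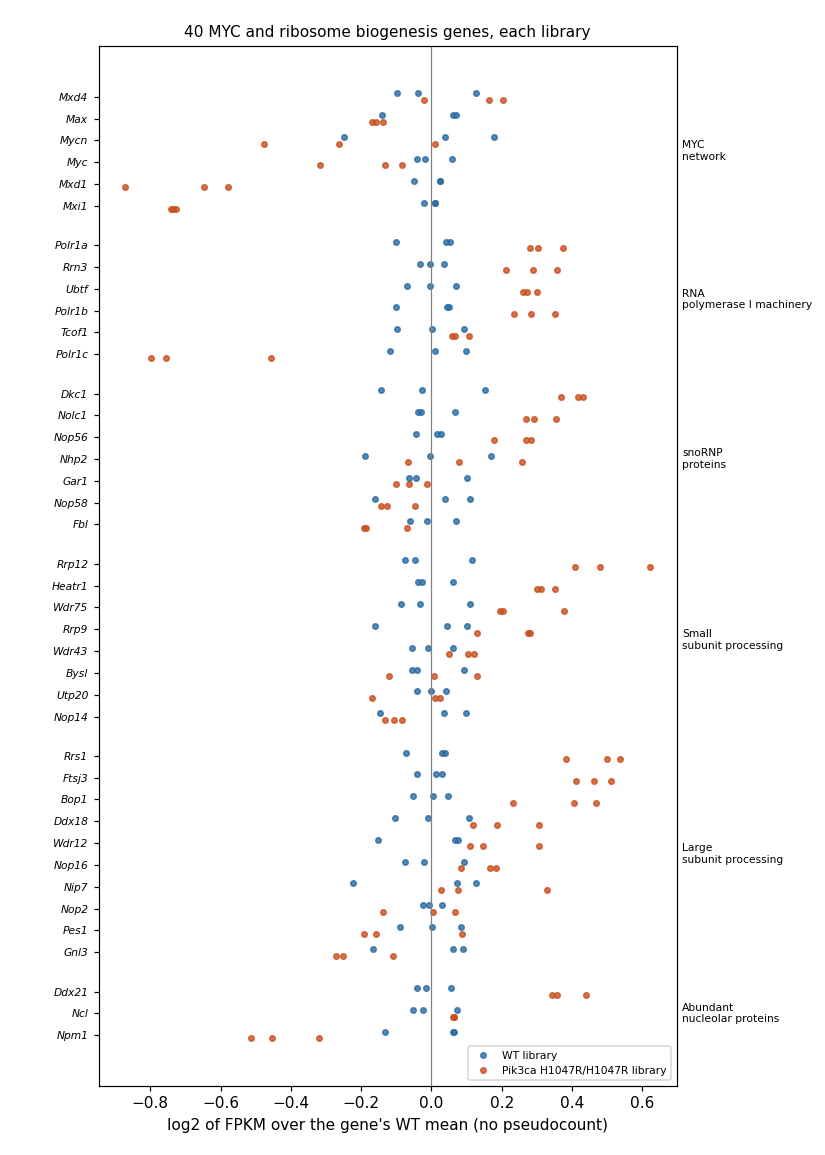
Each point is 1 library's FPKM for 1 member, as log2 of its ratio to that gene's mean over the 3 WT libraries, with WT in blue and Pik3ca H1047R/H1047R in orange, grouped by role. The mutant libraries lie wholly to the right of WT for 17 members and wholly to the left for 6, and the groups overlap for 17.

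The direction of small differences depended on whether the libraries were scaled to the same total. FPKM sums were lower in mutant libraries. Summed ribosomal protein genes, described below, were at 198631 to 257262 FPKM in WT and 116162 to 146694 FPKM in the mutant. The median over genes above 1 FPKM in every library was 12.71 to 12.95 in WT and 13.12 to 13.21 in the mutant. Scaling all libraries to the same total moved the median log2 difference of all genes by 0.29. With that scaling 28 members were higher and 2 lower, where 47.3% of all genes were higher and 7.35% lower. All 14 members called higher with the deposited values were also called higher after it, while of the 4 lower members Mxi1 and Polr1c remained lower and Mxd1 and Npm1 lost the call. The members' median was 0.10 with the deposited values, beside 0.01 for all genes, and 0.42 beside 0.30 with equal totals.

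**Figure D2:**
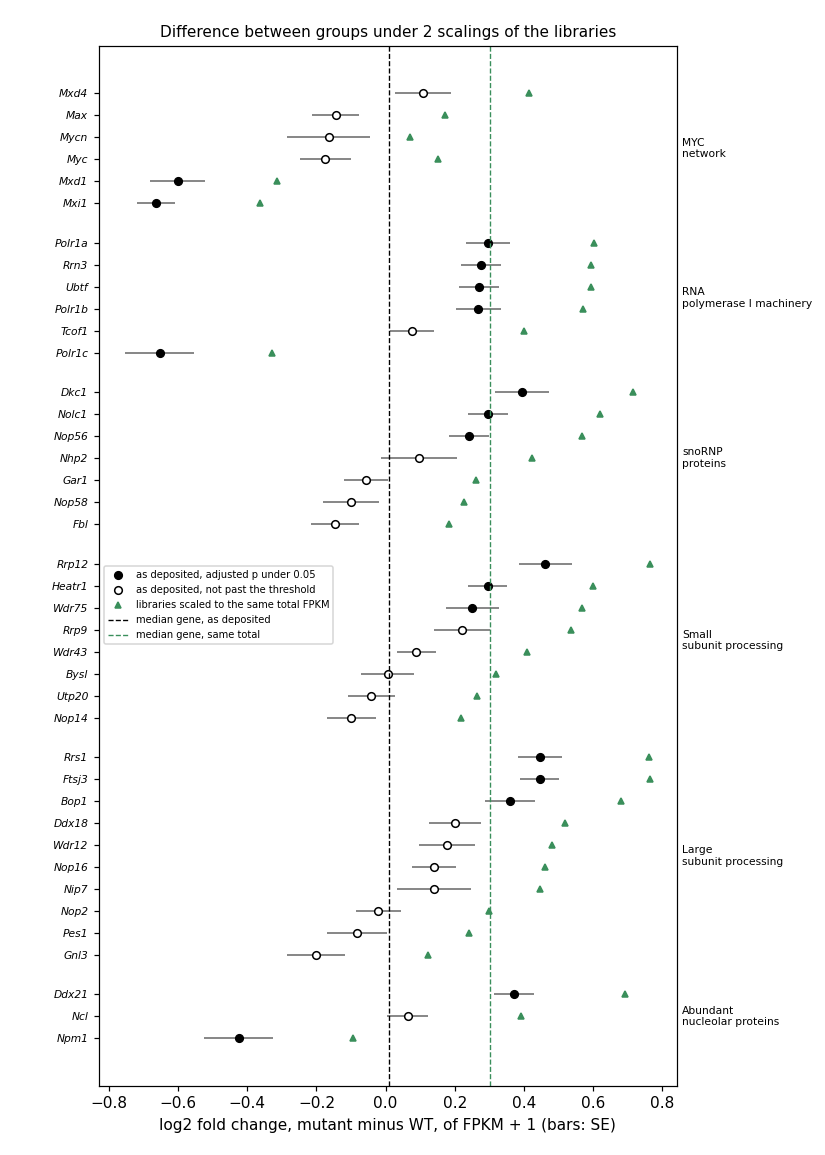
Circles give the log2 difference of each member with the deposited values (bars, SE; filled, limma adjusted p under 0.05) and triangles the difference with libraries scaled to the same total FPKM. The dashed lines mark the median of all genes tested under each scaling, 0.01 and 0.30, and most members lie to the right of the line of their own scaling.

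Within the MYC network, Myc, Mycn and Max did not pass the test with the deposited values and 2 of the 3 MXD-type repressors fell. That is 2 of 6 members lower (33.3%) and 0 higher, beside 22.8% and 23.2% of all genes. With equal totals 1 of the 6 network members, Mxd4, was higher and 1, Mxi1, lower, beside 47.3% and 7.35% of all genes. Myc was the fifth most abundant member (mean 68.2 FPKM over 6 libraries, at the percentile 90.0 of all genes tested), at 70.3, 71.4 and 75.3 FPKM in WT and 66.0, 58.0 and 68.3 FPKM in the mutant. Every mutant library was below every WT library, but the log2 difference of -0.17 (SE 0.0745) did not pass the test (limma adjusted p = 0.0897), and it was 0.15 (adjusted p = 0.224) with equal totals. In 3 of 19 alternatives Myc was called lower. These were library weights (-0.23, limma adjusted p = 0.00985), mutant replicate 3 left out (-0.22, adjusted p = 0.047) and length and GC trends removed (-0.20, adjusted p = 0.0266). Mycn, the neuronal paralog, was the lowest member, at 2.29, 2.79 and 3.07 FPKM in WT and 1.95, 2.74 and 2.27 FPKM in the mutant, with overlapping groups (limma adjusted p = 0.294). Max was at 23.1, 20.1 and 23.2 FPKM in WT and 19.8, 20.1 and 19.7 FPKM in the mutant (log2 difference -0.14, limma adjusted p = 0.118). The differences of Mycn and Max were 0.07 and 0.17 with equal totals, so their sign depended on the scaling. Under that scaling the median of all genes was 0.30, and Myc, Mycn and Max all stayed below it.

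Mxi1 and Mxd1, which bind MAX and recruit co-repressors, were the members of the network called with the deposited values. Mxi1 was at 12.4, 12.1 and 12.4 FPKM in WT and 7.42, 7.38 and 7.34 FPKM in the mutant, a log2 difference of -0.66 (SE 0.0542, limma adjusted p = 6.66e-05). The spread within each group was far smaller than the gap between them. Mxd1, which is known to rise as keratinocytes differentiate, was at 8.07, 7.67 and 8.07 FPKM in WT and 5.31, 5.06 and 4.34 FPKM in the mutant (-0.60, SE 0.0792, limma adjusted p = 0.000704). Its fall stood beside the higher suprabasal markers described above, and with equal totals it was -0.31 (limma adjusted p = 0.107). Mxd4 overlapped between groups, at 10.7, 11.99 and 10.3 FPKM in WT and 12.6, 12.3 and 10.8 FPKM in the mutant (limma adjusted p = 0.308). Summed, these 3 repressors came to between 30.7 and 31.7 FPKM in WT and between 22.5 and 25.4 FPKM in the mutant.

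With the deposited values, calls in the wider network went both ways. Of 7 tested genes of the wider MYC, MAX and MLX network, 3 were higher and 1 lower (42.9% and 14.3%). Of all genes 23.2% were higher and 22.8% lower. With equal totals 5 were higher and 0 lower, beside 47.3% and 7.35% of all genes. Mycl, the remaining MYC family gene, was at 9.55, 11.9 and 11.05 FPKM in WT and 20.2, 20.5 and 18.7 FPKM in the mutant, a log2 difference of 0.82 (SE 0.0844, limma adjusted p = 0.000222). Its share of summed Myc, Mycn and Mycl was 11.6% to 13.9% in WT and 20.9% to 25.2% in the mutant, while that of Myc was 82.9% to 85.6% in WT and 71.4% to 76.5% in the mutant. The 3 genes together spanned 82.2 to 89.4 FPKM in WT and 81.2 to 89.2 FPKM in the mutant. Mnt, another MAX-binding repressor, was at 11.98, 11.7 and 15.7 FPKM in WT and 21.5, 20.5 and 17.9 FPKM in the mutant (0.58, limma adjusted p = 0.00514). Mlx, the MAX-like partner of nutrient-responsive factors, was higher by 0.34 (limma adjusted p = 0.0101). Zbtb17, the zinc-finger protein through which MYC represses genes, was lower by the deposited values, with a log2 difference of -0.19 (limma adjusted p = 0.0396), but at 0.13 with equal totals. Summed over Mxd1, Mxd3, Mxd4, Mxi1, Mnt and Mga, the MAX-binding repressors were at 65.1 to 69.1 FPKM in WT and 63.2 to 70.3 FPKM in the mutant, so their total overlapped while its makeup differed.

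Genes of the RNA polymerase I machinery rose, except for the shared subunit Polr1c and for Tcof1. Of the 6 members, 4 were higher and 1 lower (66.7% and 16.7%, beside 23.2% and 22.8% of all genes). With equal totals 5 were higher and 1 lower, beside 47.3% and 7.35% of all genes. Ubtf, which binds the ribosomal DNA and keeps it open, was at 36.5, 38.1 and 40.2 FPKM in WT and 47.1, 45.8 and 46.1 FPKM in the mutant (log2 difference 0.27, SE 0.0577, limma adjusted p = 0.00641). Rrn3, the initiation factor that couples polymerase I to growth signals, was at 22.1, 22.5 and 23.2 FPKM in WT and 27.6, 26.2 and 29.0 FPKM in the mutant (0.28, SE 0.0591, limma adjusted p = 0.00662). For both, all mutant libraries were above all WT libraries. Polr1a and Polr1b, the large catalytic subunits, had differences of 0.30 and 0.27 (limma adjusted p = 0.00679 and 0.0118), and all mutant libraries were above WT for each. Polr1c, a small subunit that RNA polymerases I and III share, went the other way: 66.7, 62.9 and 57.5 FPKM in WT against 37.0, 35.9 and 45.4 FPKM in the mutant (-0.65, SE 0.0995, limma adjusted p = 0.00143). It was -0.33 (limma adjusted p = 0.00615) with equal totals. Tcof1, the treacle protein of ribosomal DNA transcription, did not pass the test (0.08, limma adjusted p = 0.349).

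Of 10 other polymerase I genes 3 were higher and 3 lower, shares of 30% each that are near the 23.2% and 22.8% of all genes, with a median of 0.06. With equal totals 6 were higher and 1 lower, beside 47.3% and 7.35% of all genes, with a median of 0.37. Cd3eap and Polr1e, which encode polymerase I-specific subunits, had log2 differences of 0.27 and 0.26 (limma adjusted p = 0.00738 and 0.0234). Polr1d, the other small subunit shared with polymerase III, was at 224, 212 and 187 FPKM in WT and 153, 158 and 185 FPKM in the mutant (-0.33, limma adjusted p = 0.0284), but its difference was 0.00088 with equal totals. Taf1d, a subunit of the promoter-binding factor, was lower under both scalings (-0.56, limma adjusted p = 0.00383, and -0.24, limma adjusted p = 0.034).

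Promoter windows are shown for members whose change or motif is described here, from RefSeq on GRCm38.p6, 250 bases before to 50 after the annotated start. A window was found for 33 of the 40 members. Bases are in lower case, 5′ to 3′ on the gene's strand, and capitals mark the E-box CACGTG, the palindromic MYC and MAX sequence. Of the 14 called members with a window only Rrn3 has an E-box there, with 2 of them at 215 and 48 bases upstream, and the 250 bases before its start lie on the plus strand at chr16:13780449-13780698.
Rrn3: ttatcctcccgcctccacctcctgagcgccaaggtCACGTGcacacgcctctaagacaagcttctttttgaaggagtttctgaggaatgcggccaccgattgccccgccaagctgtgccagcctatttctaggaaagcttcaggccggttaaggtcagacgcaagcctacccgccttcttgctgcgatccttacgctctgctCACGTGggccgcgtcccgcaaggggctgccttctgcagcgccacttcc
The next 3 stretches, from genes that were not called, also hold 1 E-box each: Nop2 at chr6:125131783-125131882 (plus strand), Mxd4 at chr5:34187861-34187960 (minus strand) and Max at chr12:76962239-76962348 (minus strand).
Nop2: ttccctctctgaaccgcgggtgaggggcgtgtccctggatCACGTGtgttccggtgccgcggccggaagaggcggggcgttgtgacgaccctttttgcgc
Mxd4: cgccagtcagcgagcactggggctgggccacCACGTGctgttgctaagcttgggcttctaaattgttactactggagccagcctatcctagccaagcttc
Max: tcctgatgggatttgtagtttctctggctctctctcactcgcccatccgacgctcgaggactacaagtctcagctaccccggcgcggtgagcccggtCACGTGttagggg
For comparison, the 100 bases before the start of Polr1a (chr6:71908953-71909052, plus strand), which rose, and of Mxi1 (chr19:53310406-53310505, plus strand), which fell, hold none.
Polr1a: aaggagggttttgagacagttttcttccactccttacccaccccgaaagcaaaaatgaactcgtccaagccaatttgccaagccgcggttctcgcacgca
Mxi1: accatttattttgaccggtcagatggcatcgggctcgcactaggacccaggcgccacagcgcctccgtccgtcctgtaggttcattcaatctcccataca

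The E-box was in 7 of the 33 windows (21.2%): those of Max, Mxd4, Nop2, Pes1, Rrn3, Utp20 and Wdr43. It was in 12.2% of the windows of 8656 tested genes that had one, and in 7.15% of all 32851 windows of the same length. Of 11 higher members with a window 1 held it, and of 3 lower members with a window 0 did. Other motifs were searched on both strands: the ETS sequence CCGGAAG was in 8 windows (24.2%, beside 21.4% of tested genes), the NF-Y sequence CCAAT in 12 (36.4% beside 43.1%), the GC box GGGCGG in 26 (78.8% beside 71.3%) and the NRF1 motif in 0 (beside 2.46%). These are matches to letters in short windows, and binding was not measured.

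Among the snoRNP proteins, 3 of 7 members rose and none fell with the deposited values. Genes that rose had partners in the same particle that did not pass the test there. The share higher was 42.9%, beside 23.2% of all genes, and with equal totals 5 of the 7 were higher, beside 47.3%. Nolc1, a chaperone of both snoRNP classes, was at 31.0, 33.1 and 30.8 FPKM in WT and 38.7, 38.1 and 40.4 FPKM in the mutant (log2 difference 0.30, SE 0.0576, limma adjusted p = 0.00425). Dkc1, the pseudouridine synthase of H/ACA snoRNPs, was at 20.0, 24.5 and 21.6 FPKM in WT and 28.5, 29.7 and 29.5 FPKM in the mutant (0.40, SE 0.0778, limma adjusted p = 0.00454). Nop56, a core protein of box C/D snoRNPs, was at 59.0, 58.6 and 56.1 FPKM in WT and 69.8, 65.6 and 70.5 FPKM in the mutant (0.24, SE 0.058, limma adjusted p = 0.0111). The groups did not overlap for any of these 3. Fbl, the box C/D methyltransferase and the most abundant of this role, was at 178, 168 and 163 FPKM in WT and 149, 149 and 162 FPKM in the mutant. Its difference of -0.15 (limma adjusted p = 0.117) turned to 0.18 with equal totals. Nop58, the other core protein of the particle, and Gar1 and Nhp2, partners of Dkc1, had differences between -0.10 and 0.10 and none passed the test with the deposited values. With equal totals Nop58 (0.23, limma adjusted p = 0.0338) and Nhp2 (0.42, adjusted p = 0.00303) were called higher. Gar1 (0.26, adjusted p = 0.0869) was not, and the median of all genes was 0.30.

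Nop56 and Nop58 sit as a pair in one particle, so their ratio within each library was compared, which no scaling of a library can move. It was 0.653, 0.681 and 0.750 in WT and 0.922, 0.855 and 0.870 in the mutant. The groups did not overlap, with a log2 difference of 0.35 (two-sided exact permutation p = 0.1, the smallest that 3 against 3 can give). Of 10 other snoRNP and assembly genes, 1 was higher, the assembly factor Znhit6 (0.37, limma adjusted p = 0.00515), and 0 were lower. The most abundant of them, Nhp2l1, Nop10 and Ruvbl2, did not pass the test. With the deposited values 10% of this list was called, beside 46.0% of all genes; with equal totals 7 of the 10 were higher and 0 lower, where 47.3% of all genes were higher.

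In small subunit processing, 3 of 8 members rose and none fell (37.5% higher, beside 23.2% of all genes). With equal totals 6 of the 8 were higher, beside 47.3%. Rrp12, a factor of precursor export, was at 9.61, 8.43 and 8.59 FPKM in WT and 13.7, 11.8 and 12.4 FPKM in the mutant (log2 difference 0.46, SE 0.077, limma adjusted p = 0.00215). Heatr1, a subunit of the complex that links transcription and early processing, was at 9.50, 10.2 and 9.58 FPKM in WT and 12.4, 12.01 and 12.1 FPKM in the mutant (0.30, SE 0.0573, limma adjusted p = 0.00426). Both rose without overlap between groups. Wdr75, of the same complex, was at 23.6, 21.4 and 20.6 FPKM in WT and 25.2, 25.05 and 28.4 FPKM in the mutant (0.25, limma adjusted p = 0.0279). It lost the call without WT replicate 2 (adjusted p = 0.085), WT replicate 3 (0.071) or mutant replicate 3 (0.0653). Wdr43, another subunit of that complex and the most abundant member of this role, was at 27.6, 26.3 and 25.4 FPKM in WT and 28.7, 27.4 and 28.4 FPKM in the mutant (0.09, limma adjusted p = 0.23). Rrp9, of the U3 particle, had a difference of 0.22 (limma adjusted p = 0.054), and Utp20, Nop14 and Bysl had differences between -0.10 and 0.01.

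The wider list of small subunit factors also held more higher than lower calls. Of 37 other genes 17 were higher and 5 lower, 45.9% and 13.5% beside 23.2% and 22.8% of all genes, with a median of 0.15. With equal totals 27 were higher and 0 lower, beside 47.3% and 7.35% of all genes. Mphosph10, part of the U3 particle, was at 10.3, 10.7 and 9.71 FPKM in WT and 15.7, 15.1 and 15.9 FPKM in the mutant (log2 difference 0.56, limma adjusted p = 0.000281). Tsr1, Pno1 and Nol6, which act in maturation of the precursor, rose by 0.52, 0.46 and 0.47 (limma adjusted p = 0.000474, 0.000988 and 0.000989).

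In large subunit processing, 3 of 10 members rose and none fell; 30% higher is near the 23.2% of all genes. With equal totals 9 of the 10 were higher, beside 47.3%. Ftsj3, a methyltransferase of the precursor, was at 22.3, 23.2 and 23.4 FPKM in WT and 32.7, 30.5 and 31.7 FPKM in the mutant (log2 difference 0.45, SE 0.0553, limma adjusted p = 0.000533). Rrs1, an early assembly factor, was at 14.0, 15.1 and 15.01 FPKM in WT and 20.8, 19.2 and 21.3 FPKM in the mutant (0.45, SE 0.0639, limma adjusted p = 0.00106). Bop1, the scaffold of the PeBoW complex, was at 30.8, 29.9 and 28.8 FPKM in WT and 39.5, 35.0 and 41.3 FPKM in the mutant (0.36, SE 0.0724, limma adjusted p = 0.00506). All mutant libraries were above all WT libraries for these 3 genes. Gnl3 (nucleostemin), the most abundant of this role, was at 48.6, 49.5 and 41.5 FPKM in WT and 38.5, 39.1 and 43.2 FPKM in the mutant. Its difference of -0.20 (limma adjusted p = 0.0807) was 0.12 with equal totals. Pes1, Wdr12, Nop2, Nop16, Ddx18 and Nip7 had differences between -0.08 and 0.20, and none passed the test.

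Pes1, Bop1 and Wdr12 form the PeBoW complex, in which only Bop1 was called with the deposited values. With equal totals each was called higher, Bop1 by 0.68, Wdr12 by 0.48 and Pes1 by 0.24 (limma adjusted p = 0.00059, 0.00378 and 0.0266). Under that scaling 47.3% of all genes were higher and their median was 0.30, so Pes1 lay below the median gene. Within each library, Pes1 over Bop1 was 1.45, 1.41 and 1.38 in WT and 0.955, 1.05 and 1.08 in the mutant, so Pes1 exceeded Bop1 in every WT library and the values were near parity in the mutant. The log2 ratio differed by -0.45 (two-sided exact permutation p = 0.1, the smallest possible), and the groups did not overlap. As a contrast, Myc over Max was 3.04, 3.55 and 3.24 in WT and 3.33, 2.88 and 3.46 in the mutant, a log2 difference of -0.03 (two-sided exact permutation p = 0.9). Over the 4 ratios tested here, including the one to ribosomal protein genes below, the Benjamini-Hochberg adjusted permutation p was 0.133 for the 3 ratios whose groups did not overlap and 0.9 for Myc over Max.

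**Figure D3:**
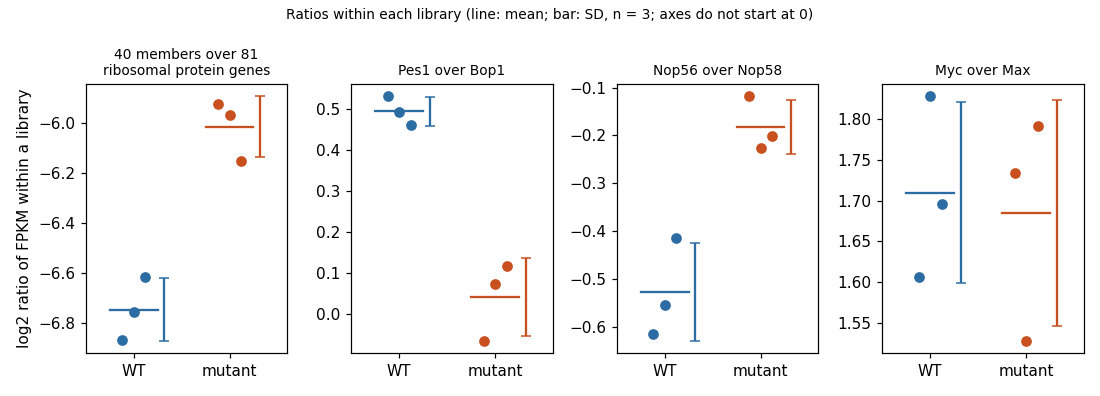
Each point is the log2 ratio of FPKM within 1 library, for summed members over summed ribosomal protein genes, Pes1 over Bop1, Nop56 over Nop58 and Myc over Max, with the mean and SD of 3 libraries. The first 3 ratios separate the groups and Myc over Max does not, and each axis has its own range.

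Of 33 other large subunit factors 17 were higher and 3 lower, 51.5% and 9.09% beside 23.2% and 22.8% of all genes, with a median of 0.20. With equal totals 27 were higher and 1 lower, beside 47.3% and 7.35% of all genes. Rrp1b, a nucleolar protein, was at 4.81, 5.61 and 6.59 FPKM in WT and 9.35, 8.89 and 9.24 FPKM in the mutant (log2 difference 0.61, limma adjusted p = 0.00175). Rbm28, a nucleolar RNA-binding protein, rose by 0.49 (limma adjusted p = 0.000277). Nsa2 and Tex10 went down, with differences of -0.68 and -0.51 (limma adjusted p = 0.000903 and 0.00034). With equal totals Nsa2 remained lower at -0.36 (limma adjusted p = 0.00325), and Tex10 at -0.19 did not pass (limma adjusted p = 0.137).

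Of the 3 abundant nucleolar proteins 1 was higher and 1 lower, beside 23.2% and 22.8% of all genes. With equal totals 2 were higher and 0 lower, beside 47.3% and 7.35%. Npm1 (nucleophosmin), the most abundant member, was at 897, 899 and 785 FPKM in WT and 603, 629 and 689 FPKM in the mutant, a log2 difference of -0.42 (SE 0.0993, limma adjusted p = 0.00981). All mutant libraries were below all WT libraries, but the call was lost without WT replicate 2 (limma adjusted p = 0.0506) and with equal totals, where the difference was -0.09 (limma adjusted p = 0.187). Npm1 took 38.8% to 40.9% of the members' summed FPKM in WT and 31.5% to 33.4% in the mutant. Ncl (nucleolin) was at 90.4, 98.6 and 92.3 FPKM in WT and 97.8, 98.1 and 98.1 FPKM in the mutant (0.06, limma adjusted p = 0.411). Ddx21, an RNA helicase of polymerase I and II transcription, rose from 31.6, 33.2 and 31.0 FPKM in WT to 43.3, 40.5 and 40.9 FPKM in the mutant (0.37, SE 0.0574, limma adjusted p = 0.00154).

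The ribosomal protein genes, which encode the protein parts of the ribosome, were lower in the mutant. Of 81 cytosolic ribosomal protein genes 79 were lower and 0 higher, beside 22.8% and 23.2% of all genes. Their median log2 difference was -0.84. With equal totals 78 were lower, beside 7.35% of all genes, with a median of -0.51. The exceptions, Rpl26 and Rps4l, were not called with the deposited values, and with equal totals both were higher, by 0.71 (limma adjusted p = 0.00179) and 0.26 (limma adjusted p = 0.0431). The sum of the 81 genes was 30.2% to 34.2% of a WT library's FPKM and 21.4% to 22.5% of a mutant library's. The 40 members summed to 2023 to 2203 FPKM in WT and 1897 to 2062 FPKM in the mutant, so their summed level was not higher in the mutant. Without Npm1 and Ncl the sum was 1146 to 1215 FPKM in WT and 1170 to 1274 FPKM in the mutant, where the groups also overlapped. As a share of the total the 40 members were at 0.286% to 0.308% in WT and 0.316% to 0.353% in the mutant. Their share of the FPKM outside ribosomal protein genes was 0.415% to 0.445% in WT and 0.408% to 0.452% in the mutant, where the groups overlapped. The log2 ratio of summed members to summed ribosomal protein genes was higher in the mutant by 0.73 (two-sided exact permutation p = 0.1, the smallest possible), and by 0.90 without Npm1 and Ncl. In both ratios the members' sums overlapped between groups, while the summed ribosomal protein genes were lower in every mutant library than in any WT library.

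The RNA exosome, which trims and degrades precursor RNA, had 8 of 11 genes higher and 0 lower, with a median of 0.26. The share higher was 72.7%, where 23.2% of all genes were higher and 22.8% lower. With equal totals 9 were higher and 0 lower, beside 47.3% and 7.35% of all genes. Exosc2 (log2 difference 0.41, limma adjusted p = 0.00611) and Exosc4 (0.39, limma adjusted p = 0.00635) were among the higher genes. Of 14 RNA polymerase III genes 6 were higher and 2 lower, 42.9% and 14.3% beside 23.2% and 22.8% of all genes, and with equal totals 10 were higher and 0 lower, beside 47.3% and 7.35%. Polr3g, the isoform of a subunit found in stem and tumour cells, was at 6.997, 7.25 and 8.59 FPKM in WT and 15.9, 15.1 and 13.5 FPKM in the mutant, a difference of 0.88 (SE 0.0906, limma adjusted p = 0.000216). The polymerase I, snoRNP, small and large subunit and exosome lists together had 46 of 101 genes higher and 11 lower (45.5% and 10.9%, beside 23.2% and 22.8% of all genes), with a median of 0.16. With equal totals 76 were higher and 2 lower, beside 47.3% and 7.35% of all genes. These lists and the members were not chosen independently of earlier results of these data.

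Calls among known MYC targets outside the nucleolus depended on the scaling. With the deposited values 3 of 20 genes were higher and 3 lower, 15% each beside 23.2% and 22.8% of all genes, with a median of -0.10. With equal totals 10 were higher and 0 lower, beside 47.3% and 7.35% of all genes, with a median of 0.22, under the median of all genes (0.30). Phb and Hspd1, mitochondrial proteins, rose by 0.43 and 0.27 (limma adjusted p = 0.0057 and 0.0142). Tfb2m, a mitochondrial transcription factor, and Apex1, a DNA repair enzyme, were lower with the deposited values, at -0.44 and -0.26 (limma adjusted p = 0.00338 and 0.0118), and were at -0.12 and 0.06 with equal totals.

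**Figure D4:**
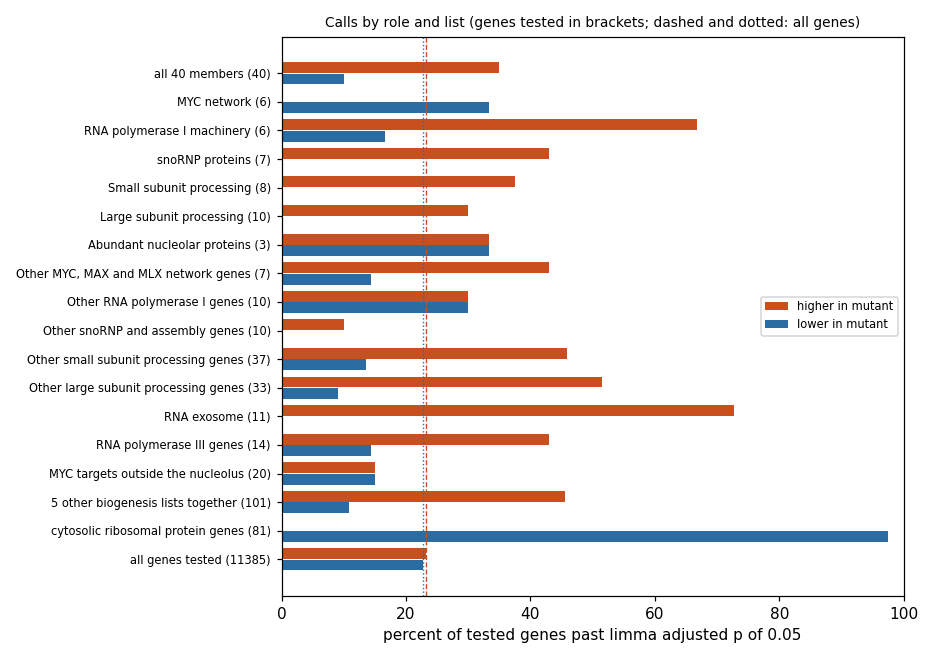
Bars give the percent of tested genes in each role or list that were higher (orange) or lower (blue) in the mutant by limma, with the number tested in brackets and the 2 vertical lines at the shares of all genes, 23.2% and 22.8%. The exosome and RNA polymerase I members have the longest orange bars, and the ribosomal protein genes have 97.5% lower.

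Members that rose had longer transcripts at the median than members not called, and length also moved with the difference over all genes. The 14 higher members had a median annotated transcript of 3608 bases, beside 2688 for the members not called and 3283 for all genes called higher. Among genes of 3000 to 5000 bases the median log2 difference was 0.05, and 28.0% were higher and 20.2% lower. Of the 13 members in that range 7 were higher and 1 lower. Genes under 1000 bases, with 0 members, had a median of -0.17. Spearman's rho of length and difference was 0.30 over the 40 members and 0.14 over 11336 genes, as a description across genes of the same 6 libraries. After the trends with length and GC content were removed from each library, 14 of the 14 higher and 4 of the 4 lower members were called in the same direction. The counts over all members were then 18 higher and 5 lower, while calls among all genes also became more frequent in both directions.

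**Figure D5:**
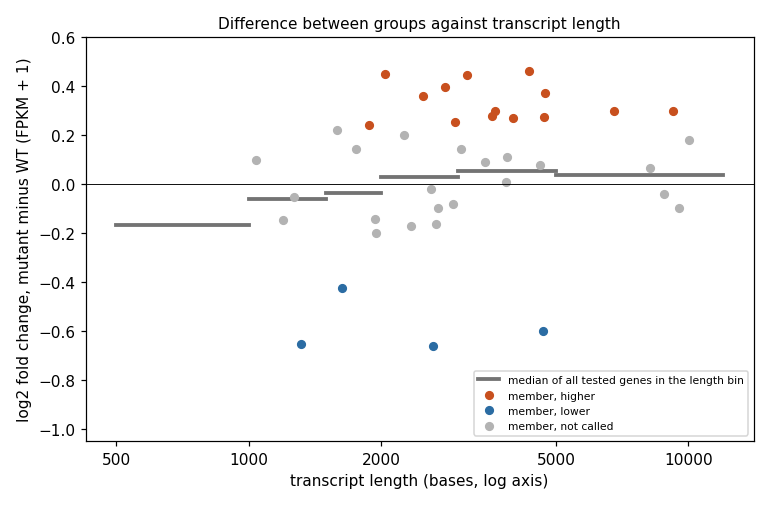
Each point is a member, by annotated transcript length (log axis) and log2 difference with the deposited values, coloured by its call, and grey lines give the median of all tested genes in each length bin. No higher member is shorter than 1500 bases, and the median of all genes rises from -0.17 in the shortest bin to 0.05 between 3000 and 5000 bases.

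Some members' rows can hold reads of other genes. Each table locus overlapped the GENCODE gene of that name, but for 7 members it spanned over 2 times the gene, since it took in a neighbour: Nop56, Dkc1, Nhp2, Bysl, Bop1, Wdr12 and Gnl3. Exons of 15 members overlap exons on the opposite strand, including Nop56 with Idh3b, Dkc1 with Mpp1 and Bop1 with Mroh1, and the sources used here do not say whether the libraries were stranded. Transcripts of other genes were searched for near-identical stretches (at least 95% identity over at least 200 bases). Such stretches exist for Fbl, Nop56, Pes1, Wdr12, Ddx18, Npm1 and Ddx21, so reads could be divided between genes. The values of these members, and the ratios Nop56 to Nop58 and Pes1 to Bop1, are uncertain to that extent. For Wdr12 the matches lie in Vmn1r88, Gm4879, Cxcr2 and Gm44044, the longest over 1377 bases of a 10012-base transcript. Within 6 members (Nop56, Nop58, Wdr43, Gnl3, Ncl and Dkc1) lie 19 small nucleolar RNA genes. The deposited intervals of the WT and mutant libraries overlapped for all 40 members, since each reached 31.5% to 91.4% of its value to either side.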

How the data were processed

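RNA-seq of 3 WT and 3 mutant libraries was analysed from the deposited table of FPKM per gene. The authors' FPKM values came from TopHat and Cufflinks (no versions are named), per the submitters' processing notes. Those notes name build mm9, but the table's loci matched GRCm38 for all 40 members, so positions are read as GRCm38 with 1 added to each start. The deposited table also holds the lower and upper interval bound of each FPKM signal, per the file headers. Depth is unknown, so precision was judged from the spread of libraries and from these bounds. All 6 libraries were used, grouped by their titles.

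Genes whose mean reached 1 FPKM were tested with limma 3.58.1 (R 4.3.3) on log2(FPKM + 1), with a trend in the variance prior and Benjamini-Hochberg adjustment over 11385 genes. Adding 1 understates the change of low genes. The fit was run on simulated data with independent noise, few changed genes and no difference in library totals. Those settings differ from the present table, so the simulation cannot tell how reliable the calls here are. Folds named as such are ratios of mean FPKM. Within-library ratios were compared by exact permutation. Transcript lengths, overlaps and near-identical stretches came from GENCODE M21 (BLAST+ 2.17.0), and promoter windows from RefSeq.

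The members and lists were chosen with earlier results of these data known. All MYC network members were to be given in full, as were, in each other role, the 3 with the smallest limma p and the 1 with the highest mean; from each other list up to 4 genes were named, called genes by smallest p first and then by highest mean. Polr1a, Polr1b and the remaining members are given by difference or range. Alternatives were 2 pseudocounts, 2 filters, 4 scalings, a prior without trend, library weights, a replicate block, a stricter threshold, each library left out and, added after seeing the data, removal of length and GC trends.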

Additional observations from a re-analysis of the deposited data

How the results depend on the processing

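With libraries scaled to the same total, members called lower numbered 2 and higher 28, and the counts of genes lower and genes higher over the whole table were 839 and 5396; with small RNA rows also left out, these were 2, 32, 843 and 6623. Library weights gave 10 lower and 15 higher members, and calls among all genes also became more frequent, with 3546 lower and 3542 higher. A threshold of 0.01 left 1634 lower and 1554 higher genes. With length and GC trends removed, 2966 genes were lower and 2951 higher. Leaving out 1 library at a time gave 13 to 15 higher and 4 to 6 lower members, and 1922 to 2597 higher and 1957 to 2610 lower genes. The log2 ratio of members to ribosomal protein genes ranged from 0.67 to 0.80 (0.90 without Npm1 and Ncl), Pes1 to Bop1 from -0.49 to -0.40, Nop56 to Nop58 from 0.30 to 0.40, and the log2 ratio Myc to Max from -0.0791 to 0.0535, turning sign without WT replicate 2 (0.034) or mutant replicate 2 (0.053). Among called members, Npm1 lost the call in 5 of 19 alternatives, Wdr75 in 6, Mxd1 and Nop56 in 2 each and Polr1b in 1, and the other 13 in none. Of members not called, Rrp9 gained a call in the direction of its deposited difference in 6 alternatives, and Ddx18 and Nop16 in 5 each. Myc, Gnl3, Ncl and Nhp2 did so in 3 each, and others in fewer. The cause of these losses and gains was not tested.

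Small differences changed sign. Scaling to equal totals moved the median of all genes from 0.01 to 0.303, and every gene listed next for that scaling stayed under this median. With equal totals, Myc was at 0.15, Mycn 0.0708, Max 0.17, Fbl 0.18, Nop58 0.23, Gar1 0.26, Utp20 0.26, Nop14 0.22, Pes1 0.24, Nop2 0.30, Gnl3 0.12, Zbtb17 0.13, Polr1d 0.00088, Nhp2l1 0.20, Nop10 0.0543 and Apex1 0.0568. With small RNAs also left out, Myc was at 0.20, Mycn 0.10, Max 0.21, Fbl 0.23, Nop58 0.27, Gar1 0.31, Utp20 0.31, Nop14 0.26, Pes1 0.28, Nop2 0.34, Gnl3 0.17, Zbtb17 0.17, Polr1d 0.0459, Nhp2l1 0.24, Nop10 0.10 and Apex1 0.10. Quantile normalization put Fbl at 0.11, Nop58 at 0.0684, Nop2 at 0.0155 and Nhp2l1 at 0.10. Bysl was at -0.024 with equal medians, -0.12 with library weights, -0.0514 with length and GC trends removed, and between -0.052 and 0.0661 with 1 library left out. Library weights put Nhp2 at -0.0044 and Utp20 at 0.0056. Removing length and GC trends put Gar1 at 0.0297. With 1 library left out, Utp20 lay between -0.0728 and 0.0164 and Nop2 between -0.064 and 0.0349.

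Same-numbered libraries deviated together with r of 0.127, 0.122 and -0.00735, so the numbers were not taken as pairing the samples. With the replicate number as a block, 12 members were higher and 3 lower, the counts of genes higher and genes lower were 1889 and 1909, and the ratio of members to ribosomal protein genes differed by 0.73 (two-sided exact sign-flip p = 0.25, the smallest possible).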
